A study of Mus musculus with 12 samples.

Results

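The difference between 2 C17.2 lines in their early response to T3 (triiodothyronine, the active thyroid hormone) was measured. C17.2 is a neural progenitor line from mouse. C17.2b stably expresses a tagged thyroid hormone receptor beta and C17.2a a tagged thyroid hormone receptor alpha. The groups were C17.2b with T3 at 1e-07 M, C17.2b untreated, C17.2a with T3 at 1e-07 M and C17.2a untreated, each at 6 and at 12 h, with 1 library for each group and time. All cells had first spent 24 h in serum-free medium. Members were chosen by time alone: the 8 libraries of 6 and 12 h among the 12 of the series, 4 from each line, of which 10187 of 12774 gene symbols were tested. The 4 libraries of 24 h stayed outside the fit and are given as values only. Each receptor was present as 1 line, so receptor and line cannot be told apart, and no untransfected C17.2 cells were analysed here. The labels do not say whether a line is 1 clone, which promoter drives the receptor or whether libraries came from separate cultures.

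Thyroid hormone receptors are nuclear receptors that sit on DNA, commonly as a heterodimer with a retinoid X receptor, at pairs of a motif close to AGGTCA. Without hormone they recruit corepressors, and T3 exchanges these for coactivators, so that direct targets rise. The alpha receptor is the main form in developing brain, and the beta form is known from liver, pituitary, retina and inner ear. Both bind T3, and how far they act on the same genes is the question that a comparison of the lines addresses.

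Levels are RPM, the tags of a gene relative to all tags of its library on 1 common scale, and a response is the log2 ratio of T3 over untreated on log2(RPM + 1), which understates the change of low genes. The line difference is the mean response of C17.2b at 6 and 12 h minus that of C17.2a. Its error is the standard error (SE) of a limma fit over 4 pairs, each a T3 library and its untreated partner, 2 pairs a line, with a 95% interval, and adjusted p-values are limma's over all genes tested. No group had a second library, so the spread comes from the gap between 6 and 12 h within a line, whose median over genes was 0.22 in C17.2b and 0.25 in C17.2a on the log2 scale. The fit draws the spread of each gene towards that of genes of like level. This shared part weighs as 11.7 degrees of freedom, against 2 from the gene itself. An SE, interval or p-value is therefore not set by the gap of that gene alone. The median half-width of the interval of a line difference was 0.52.

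The 8 libraries had an implied depth of 9.4e+06 to 1.91e+07 tags, the lowest in C17.2b with T3 at 6 h and the highest in C17.2b untreated at 6 h, and 3 tags then stand for 0.157 to 0.319 RPM, a floor that covers counting error only. The progenitor label could be set against 6 markers, of which 5 exceeded 1 RPM in all 8 libraries, among them the intermediate filament Nes (nestin) at 70.2 to 129 RPM and the transcription factor Sox2 at 86.1 to 306 RPM. Their summed level, nearly all from the intermediate filament Vim (vimentin, 1112 to 2597 RPM), was 1346 to 1833 RPM in C17.2b with T3 against 2873 to 3062 untreated, and 1313 to 1547 RPM in C17.2a with T3 against 2284 to 2679 untreated. The members did not all move with that sum: Nes had 129 and 70.2 RPM in C17.2b with T3 at 6 and 12 h, against 111 and 122 RPM untreated, and Fabp7 13.9 and 14.8 RPM, against 22.1 and 14.3 RPM. The neuronal markers Syn1 and Slc17a7 did not exceed 0.15 RPM, Snap25 had 0.30 to 1.57 RPM, and the astrocyte marker Gfap did not exceed 2.21 RPM, while the 4 microglial and leukocyte markers and the 3 endothelial markers chosen were not analysed here. The summed fibroblast markers, nearly all from the collagens Col1a1 and Col1a2, were lower in C17.2b, at 1259 to 1648 RPM with T3 and 1369 to 1436 RPM untreated, against 2929 to 3701 RPM and 2978 to 3240 RPM in C17.2a. That gap came mainly from Col1a1, at 747 to 965 RPM in C17.2b against 2208 to 3080 RPM in C17.2a. Col1a2 overlapped between the lines with T3, at 511 and 682 RPM in C17.2b against 611 and 617 RPM in C17.2a. Untreated it had 516 and 454 RPM against 768 and 650 RPM. The oligodendroglial transcription factor Sox10 was higher in C17.2b, at 759 and 735 RPM with T3 and 746 and 727 RPM untreated, against 382 and 334 RPM with T3 and 517 and 348 RPM untreated in C17.2a. The part of these line-wide levels in the results below was not tested.

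Thra and Thrb, the genes of the receptors themselves, did not mark the lines. Thra had 2.34 and 2.39 RPM in C17.2b with T3 at 6 and 12 h and 3.30 and 2.24 RPM untreated, and 2.68 and 2.41 RPM in C17.2a with T3 against 3.40 and 2.04 RPM untreated. Thrb had 1.70 and 1.86 RPM in C17.2b with T3 and 1.94 and 0.72 RPM untreated, and 2.19 and 1.77 RPM in C17.2a with T3 against 1.55 and 0.98 RPM untreated. The ranges of the lines overlapped for both genes. Whether tags from the transgenes are assigned to these symbols is not given in the sources used here, so these values do not check the line labels. The line difference of the response was -0.10 for Thra (95% interval -0.78 to 0.58) and -0.10 for Thrb (-0.86 to 0.66), and neither passed (adjusted p 0.967 and 0.974). Of the 14 tested genes of the list of receptors, retinoid X receptors and corepressors, 0 had a called line difference in limma in either direction, and 0 had an unadjusted p under 0.05. Among them the heterodimer partner Rxrb rose with T3 in C17.2b by 0.61 (SE 0.15, adjusted p 0.0193), with 0.33 in C17.2a (adjusted p 0.254), and its line difference was 0.28 (-0.18 to 0.74, adjusted p 0.844).

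Genes called for the T3 response in both lines had the same direction in each. For genes called in a single line the directions were not counted. In C17.2b 641 genes rose (6.29% of those tested) and 371 fell (3.64%), and in C17.2a 396 rose (3.89%) and 284 fell (2.79%). With the libraries rescaled by median ratios, C17.2b had 518 genes higher and 478 lower. Of the 1012 genes called in C17.2b and the 680 called in C17.2a, 465 were called in both, which is 45.9% of the first list and 68.4% of the second, and all 465 had the same sign. The 547 genes called in C17.2b but not in C17.2a included 1 with a called line difference, and the 215 called in C17.2a but not in C17.2b also included 1, so a call in a single line mostly did not come with a measured difference between lines. The response averaged over the lines called 897 genes higher (8.81%) and 642 lower (6.3%).

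**Figure D1:**
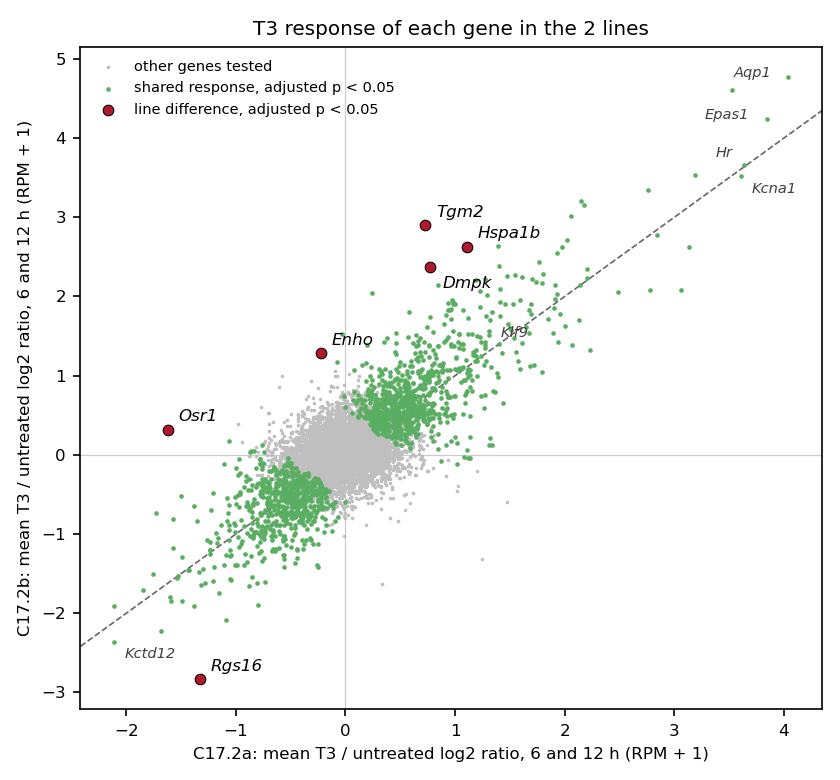
Mean log2 ratio of T3 over untreated at 6 and 12 h, on RPM + 1, in C17.2b (vertical axis) against C17.2a (horizontal axis), 1 point a gene, for 10187 genes; the dashed line marks equal responses. Green points are the 1539 genes called for the response averaged over the lines, which lie mostly along the dashed line, and the 6 dark red points are the genes whose line difference passed an adjusted p of 0.05.

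The line difference passed the threshold for 6 genes. Of these 5 responded higher in C17.2b (0.0491% of those tested) and 1 lower (0.00982%). The 5 were Tgm2, a transglutaminase that cross-links proteins, Osr1, a zinc finger transcription factor of kidney and mesoderm development, Dmpk, the kinase whose gene is expanded in myotonic dystrophy, Hspa1b, an inducible heat shock protein of the Hsp70 family, and Enho, which encodes the secreted peptide adropin. The 1 was Rgs16, a regulator that speeds GTP hydrolysis by G protein alpha subunits. At an unadjusted p under 0.05 there were 735 genes (7.22%), 480 with a higher and 255 with a lower response in C17.2b. In bulk RNA, fewer cells of a type and less RNA per cell cannot be told apart.

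Tgm2 had 164 and 139 RPM in C17.2b with T3 at 6 and 12 h, against 20.1 and 18.65 RPM untreated. In C17.2a it had 145 and 97.4 RPM with T3, against 83.7 and 60.9 RPM untreated. The T3 libraries of the lines overlapped, and the untreated C17.2b libraries were the lowest of the 8, under all 4 of C17.2a. Its line difference was 2.17 (SE 0.18, 95% interval 1.78 to 2.57, adjusted p 0.000156 in limma), that is, a T3 over untreated ratio 4.51 times that of C17.2a on RPM + 1. The gene rose in each line, by 2.90 in C17.2b and 0.73 in C17.2a on the log2 scale (adjusted p 9.48e-09 and 0.0035).

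Dmpk showed the same arrangement. Its level in C17.2b was 33.4 and 34.4 RPM with T3 at 6 and 12 h and 6.97 and 4.75 RPM untreated. In C17.2a it was 30.0 and 22.8 RPM with T3 and 16.6 and 13.4 RPM untreated, so that the untreated C17.2b libraries were again lowest and the T3 libraries of C17.2b highest by a small margin. The line difference was 1.59 (SE 0.24, 1.08 to 2.11, adjusted p 0.0324). The mean response was 2.37 in C17.2b and 0.77 in C17.2a, both past the threshold (adjusted p 9.21e-07 and 0.0132).

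Hspa1b had 31.3 and 35.9 RPM in C17.2b with T3, against 4.71 and 4.48 RPM untreated. The C17.2a libraries had 21.4 and 22.4 RPM with T3, against 10.4 and 8.97 RPM untreated. Each T3 library exceeded each untreated library of either line, and the 2 lines did not overlap in either condition. The line difference was 1.52 (SE 0.24, 1.01 to 2.03, adjusted p 0.0361), with a mean response of 2.63 in C17.2b and 1.11 in C17.2a. Hspa1a, a nearly identical copy, had 0.00 to 0.48 RPM in the 8 libraries, and how tags that fit both copies were assigned is not given in the sources used here, so the level of Hspa1b is uncertain.

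The mean responses of Enho and Osr1 had opposite signs in the lines. Only that of Enho in C17.2b and that of Osr1 in C17.2a passed the threshold. Enho had 21.3 and 22.1 RPM in C17.2b with T3, against 9.53 and 7.35 RPM untreated, and 11.9 and 12.0 RPM in C17.2a with T3, against 14.5 and 13.7 RPM untreated. It rose in C17.2b by 1.28 (adjusted p 0.0002), while its value in C17.2a was -0.22 (adjusted p 0.545), and the line difference was 1.5 (SE 0.24, 0.98 to 2.02, adjusted p 0.0411). Osr1 had 10.6 and 9.56 RPM in C17.2b with T3, against 7.18 and 8.61 RPM untreated, and 3.38 and 2.55 RPM in C17.2a with T3, against 14.8 and 8.35 RPM untreated. It fell in C17.2a by 1.62 (adjusted p 0.000154), while its value in C17.2b was 0.32 (adjusted p 0.389). The line difference was 1.95 (SE 0.28, 1.35 to 2.54, adjusted p 0.0224), and the C17.2a libraries with T3 were the lowest of the 8.

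Rgs16 fell with T3 in each line, and further in C17.2b. It had 26.1 and 25.2 RPM in C17.2b with T3 at 6 and 12 h, against 199 and 179 RPM untreated. In C17.2a it had 41.5 and 43.8 RPM with T3, against 107 and 111 RPM untreated. C17.2b thus held both the lowest T3 and the highest untreated libraries. The response was -2.83 in C17.2b and -1.33 in C17.2a (adjusted p 9.48e-09 and 2.53e-05), and the line difference was -1.5 (SE 0.18, -1.89 to -1.11, adjusted p 0.00614).

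**Figure D2:**
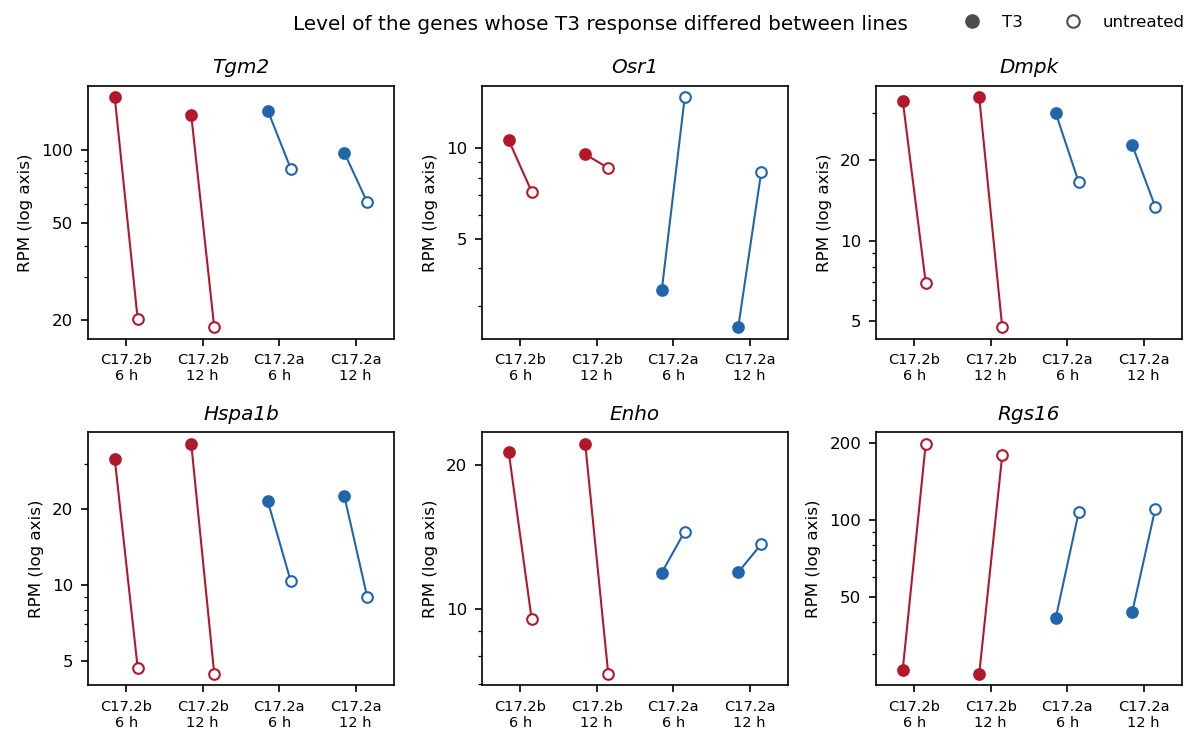
Level in RPM, on a log axis, of the 6 genes called for the line difference; filled circles are T3 and open circles untreated libraries, joined within a pair, with C17.2b in red on the left and C17.2a in blue on the right, each at 6 and 12 h. For Tgm2, Dmpk and Hspa1b the C17.2b pairs span the larger range and their open circles are the lowest, for Enho and Osr1 the pairs of the lines slope in opposite directions, and for Rgs16 the filled circle is the lower one in all 4 pairs, with the wider span in C17.2b. The shallower slopes, of Enho in C17.2a and of Osr1 in C17.2b, did not pass the threshold.

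Over 13 alternative settings the calls were kept in 12 for Tgm2, 11 for Rgs16, 10 for Osr1 and 8 each for Dmpk, Hspa1b and Enho, with the sign unchanged throughout. The settings were not equally strict. With a time term, or without either C17.2a pair, all 6 calls were kept while many more genes were called, so a call kept there adds little. Without the C17.2b 12 h pair Dmpk, Hspa1b and Enho lost the call, with line differences of 1.34, 1.40 and 1.30. The line difference of Tgm2 ran from 2.10 to 2.24 with each pair left out in turn. The number of genes called changed with the pair left out. One line then had a single pair, and the cause of these changes was not tested. Under median-ratio scaling 3 genes were called, 2 higher and 1 lower (Osr1, Tgm2 and Rgs16).

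The sequence next to the start site of the called genes is shown because a direct receptor target could carry the receptor's motif there. RefSeq windows of GRCm38.p6, which run from 250 bases before to 50 bases after the start, were matched for 3 of the 6 genes, and the 250 bases before the start are printed 5′ to 3′ on the gene's strand. They are chr7:19083608-19083857 on the plus strand for Dmpk, chr17:34959239-34959488 on the minus strand for Hspa1b and chr1:153740103-153740352 on the plus strand for Rgs16. Capitals mark a pair of heat shock motifs facing each other, GAANNTTC.
Dmpk: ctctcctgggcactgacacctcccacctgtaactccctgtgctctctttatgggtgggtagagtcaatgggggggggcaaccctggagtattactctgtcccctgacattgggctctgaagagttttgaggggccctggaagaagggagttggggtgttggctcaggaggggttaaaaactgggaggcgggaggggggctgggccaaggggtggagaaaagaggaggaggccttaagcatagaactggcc
Hspa1b: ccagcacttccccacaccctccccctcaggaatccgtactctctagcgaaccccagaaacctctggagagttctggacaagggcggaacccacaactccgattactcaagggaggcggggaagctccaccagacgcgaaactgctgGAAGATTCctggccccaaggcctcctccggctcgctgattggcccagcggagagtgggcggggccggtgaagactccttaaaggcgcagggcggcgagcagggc
Rgs16: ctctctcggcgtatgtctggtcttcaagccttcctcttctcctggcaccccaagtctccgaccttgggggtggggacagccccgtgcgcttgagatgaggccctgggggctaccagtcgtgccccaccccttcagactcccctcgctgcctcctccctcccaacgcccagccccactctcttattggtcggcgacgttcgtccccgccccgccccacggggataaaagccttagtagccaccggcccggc
The motif AGGTCA, searched on both strands, was in 0 of these 3 windows of 300 bases, and in 0 of the 16 windows matched for 15 of the 23 genes named for the line difference. It was in 16.3% of all 32851 windows, and the direct repeat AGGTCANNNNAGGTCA was in 0.0152%. The heat shock pair, searched as GAANNTTC or TTCNNGAA, which read alike on both strands, was found at 1 place in the Hspa1b window, starting 104 bases before the start, and in neither of the other windows. One form or the other was in 15.1% of all windows. These matches describe letters in a short window and say nothing of binding.

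To show the wider pattern, each direction was filled to 12 genes with the smallest unadjusted p among genes with a mean of at least 3 RPM whose C17.2b responses both lay on one side of both C17.2a responses. Over all genes both C17.2b responses lay above both C17.2a responses in 2331 (22.9%) and below them in 1356 (13.3%), so such an arrangement is common. None of the 17 added genes described here passed the threshold, the nearest being Vdr at an adjusted p of 0.0594 beside Enho at 0.0411.

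On the higher side Vdr, the vitamin D receptor, had 12.7 and 8.06 RPM in C17.2b with T3, against 1.78 and 1.61 RPM untreated, and 6.96 and 6.65 RPM in C17.2a with T3, against 7.35 and 4.26 RPM untreated. Its line difference was 1.81 (SE 0.31, 1.15 to 2.47). Dgat2, which catalyses the last step of triglyceride synthesis, had 451 and 480 RPM in C17.2b with T3, against 106 and 133 RPM untreated, and 151 and 115 RPM in C17.2a with T3, against 71.0 and 62.8 RPM untreated. It was higher in C17.2b in both conditions and rose in each line, by 1.96 and 0.97 (adjusted p 3.85e-07 and 0.000351), with a line difference of 0.99 (SE 0.18, 0.59 to 1.38, adjusted p 0.0904). Mpp7, a scaffold of cell junctions, had a line difference of 1.30 and also rose in each line, by 2.14 and 0.84. Pmepa1, an inhibitor of TGF-beta signalling, rose in C17.2b by 1.54 (adjusted p 8.14e-06), with 0.46 in C17.2a (adjusted p 0.0736). The proprotein convertase Pcsk4 and the microfibril-associated Adamtsl4 rose in C17.2b, by 0.99 and 1.53, and had responses of -0.58 and -0.03 in C17.2a that did not pass (adjusted p 0.129 and 0.962). Echdc2, a mitochondrial protein with an enoyl-CoA hydratase domain, fell in C17.2a by 0.71 (adjusted p 0.0187), with 0.53 in C17.2b (adjusted p 0.06).

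On the lower side 9 of the 10 added genes described followed 1 of 2 patterns. Hmga2, a chromatin protein of progenitor cells, Ccl2, a chemokine, and Cmtm3 fell with T3 in C17.2b, by 1.41, 1.41 and 0.96 (adjusted p from 5.87e-06 for Ccl2 to 0.000313 for Cmtm3). Their responses in C17.2a were -0.25, -0.56 and -0.12, of which that of Ccl2 passed (adjusted p 0.014).

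In the second pattern the gene rose in C17.2a and its C17.2b response did not pass. This held for Chpf, a factor of chondroitin synthesis, Lix1l, Fam38a, now named Piezo1, a mechanically gated channel, Trpm7, a channel with a kinase domain, Prex1, an activator of Rac, and Nt5dc2. Their C17.2a responses ran from 0.87 for Nt5dc2 to 1.31 for Chpf, and the C17.2b responses from -0.21 for Prex1 to 0.12 for Chpf. Chpf had 25.4 and 22.5 RPM in C17.2b with T3, against 25.7 and 18.8 RPM untreated, and 33.6 and 32.4 RPM in C17.2a with T3, against 11.8 and 13.7 RPM untreated. The remaining gene, Bag2, a partner of Hsp70 chaperones, had the lowest line difference, -2.56 (SE 0.52, -3.67 to -1.44, adjusted p 0.131), which rested on the 12 h pair of C17.2b: its responses were -0.08 at 6 h and -2.53 at 12 h in C17.2b and 1.22 and 1.28 in C17.2a.

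**Figure D3:**
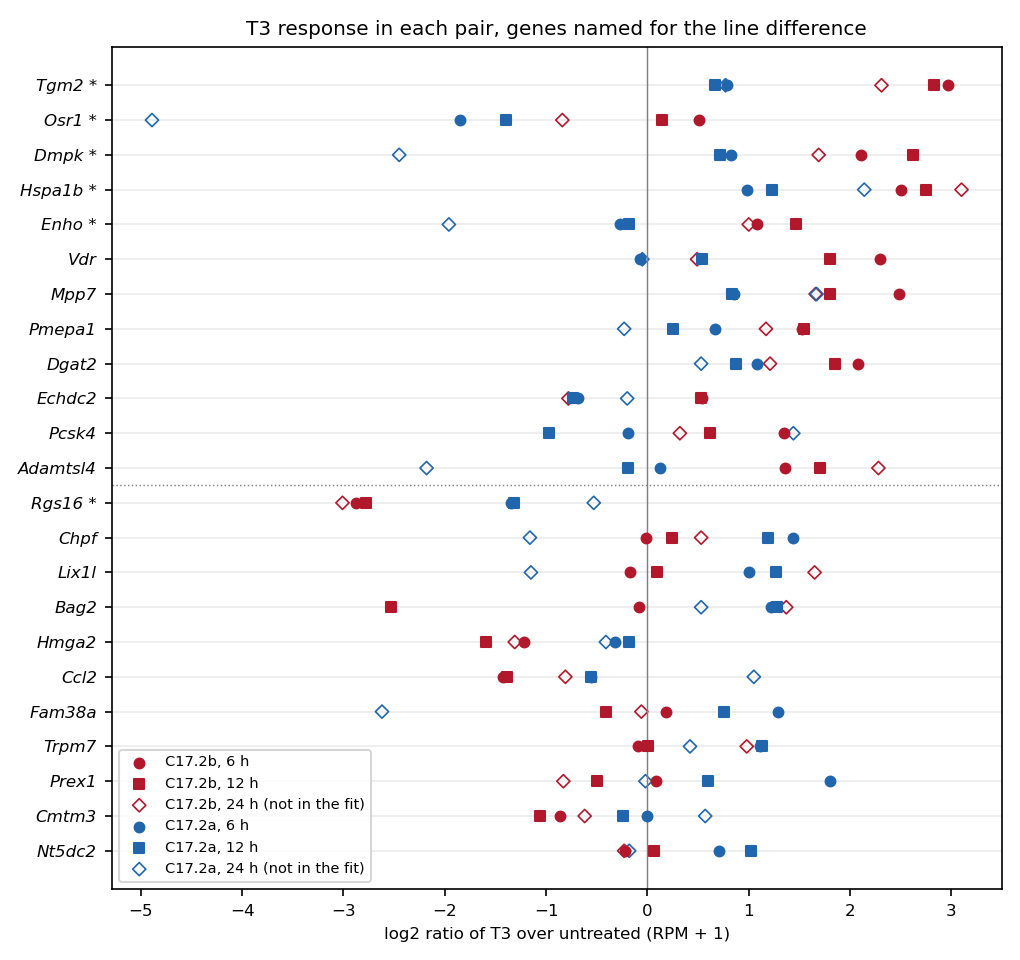
Log2 ratio of T3 over untreated on RPM + 1 in each pair for the 23 genes named for the line difference, higher in C17.2b above the dotted line and lower below it; red is C17.2b and blue C17.2a, circles are 6 h, squares 12 h and open diamonds the 24 h pairs outside the fit, and an asterisk marks the 6 called genes. Filled red and blue symbols do not overlap in any row, as the choice of genes required, while the open diamonds of 24 h cross over in 8 of the 23 rows.

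The difference in response can be split into the difference between the lines with T3 and that without, on log2(RPM + 1), in the same 8 libraries, so this is a second view of the same values and not a separate test. In 4 of the 6 called genes the untreated libraries lay further apart than the T3 libraries. C17.2b minus C17.2a was 0.34 with T3 and -1.83 without for Tgm2, 0.36 and -1.23 for Dmpk, 0.59 and -0.93 for Hspa1b, and -0.71 and 0.79 for Rgs16. For Osr1 and Enho the T3 libraries lay further apart, with 1.49 with T3 and -0.45 without for Osr1 and 0.81 and -0.69 for Enho. In all 6 genes the sign with T3 was opposite to that without. Among the 23 genes the untreated gap was the wider one in 16. Prex1, at 0.73 with T3 and 2.14 without, and Adamtsl4, at -0.35 and -1.91, were apart mainly without hormone. Dgat2, at 1.81 with T3 and 0.82 without, Pcsk4, at 1.54 and -0.03, and Ccl2, at -1.46 and -0.61, were further apart with it.

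**Figure D4:**
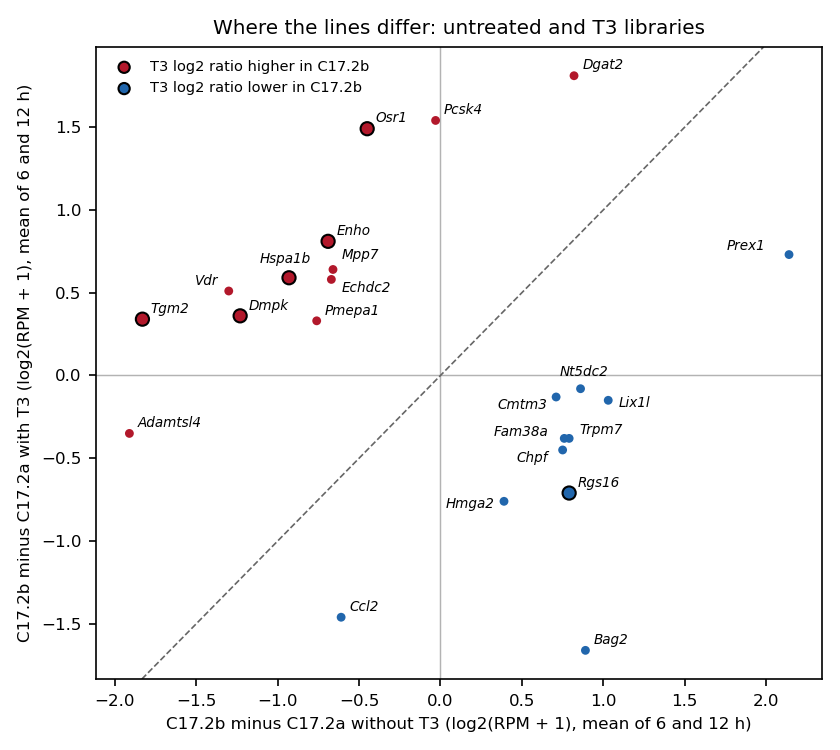
C17.2b minus C17.2a on log2(RPM + 1), averaged over 6 and 12 h, in the T3 libraries (vertical axis) against the untreated libraries (horizontal axis) for the 23 genes named for the line difference; red points have a higher and blue points a lower T3 response in C17.2b, and black rims mark the 6 called genes. Distance from the dashed diagonal is the line difference of the response, and Tgm2, Dmpk, Hspa1b and Rgs16 lie further from 0 along the horizontal than along the vertical axis.

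The genes with the highest and lowest averaged response gave intervals for how far the lines could differ there. Hr (hairless), a nuclear corepressor and known T3 target, had 75.6 and 67.7 RPM in C17.2b with T3, against 4.29 and 5.2 RPM untreated, and 36.4 and 34.3 RPM in C17.2a with T3, against 2.16 and 1.69 RPM untreated. Its level was higher in C17.2b in both conditions while its response was 3.66 and 3.64, with a line difference of 0.02 (-0.49 to 0.54, adjusted p 0.991). The sign of so small a value changed with the settings. The potassium channel Kcna1 had 600.0 and 601 RPM in C17.2b with T3, against 64.4 and 41.2 RPM untreated, and 226 and 255 RPM in C17.2a with T3, against 24.7 and 14.1 RPM untreated, with a line difference of -0.09 (-0.69 to 0.51). Epas1, the hypoxia-inducible factor HIF-2 alpha, rose by 4.24 in C17.2b and 3.85 in C17.2a, with a line difference of 0.39 (-0.13 to 0.90, adjusted p 0.803). The transcription factor Klf9, a known direct target, rose by 1.70 and 1.32, with a line difference of 0.38 (-0.11 to 0.88, adjusted p 0.803). For Hr, Kcna1, Epas1 and Klf9 the interval stayed inside a 2-fold range, a bound on the difference rather than a sign that the lines respond alike.

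For the water channel Aqp1 and the adhesion protein Flrt1 the interval lay above 0 before adjustment over genes. Aqp1 had 120 and 195 RPM in C17.2b with T3, against 3.51 and 6.10 RPM untreated, and 87.7 and 75.1 RPM in C17.2a with T3, against 3.32 and 4.80 RPM untreated, with a line difference of 0.73 (0.21 to 1.25, adjusted p 0.509). Flrt1 had a line difference of 1.08 (0.42 to 1.73, adjusted p 0.374), but one of its untreated C17.2b libraries, at 0.18 RPM, lay under the level of 3 tags, so its ratio depends on the pseudocount. Socs2, an inhibitor of cytokine and growth hormone signalling, had 0.34 (-0.24 to 0.92). Among the genes that fell, Kctd12, an auxiliary subunit of GABA-B receptors, had 27.9 and 20.5 RPM in C17.2b with T3, against 135 and 119 RPM untreated, and 11.7 and 8.21 RPM in C17.2a with T3, against 47.6 and 43.9 RPM untreated, with a line difference of -0.25 (-0.71 to 0.21). The lipid transporter Atp10b, the glycosyltransferase Gcnt1, the adhesion molecule Chl1 and Epb4.1l4b, now named Epb41l4b, had line differences of 0.20, -0.19, -0.54 and 0.14, none past the threshold. Chl1 had 0.10 RPM in C17.2a with T3 at 6 h, under the level of 3 tags there (0.298 RPM), so its ratio also depends on the pseudocount. Rgs16, described above, was the second lowest of the averaged responses.

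The sizes of the shared response leaned towards C17.2b in most genes, by little. Of the 1539 genes called for the averaged response, 1000 (65%) had the larger mean response in C17.2b, 63% at 6 h and 60.6% at 12 h taken alone. The median size was 0.64 in C17.2b and 0.55 in C17.2a on the log2 scale. Both times leaned to C17.2b in 677 genes and to C17.2a in 313. Among the 897 genes that rose the share was 68.7%, with median responses of 0.68 in C17.2b and 0.56 in C17.2a, and among the 642 that fell it was 59.8%, with -0.58 and -0.53. In the 247 genes whose averaged response was at least 1 the share was 71.3%, with median sizes of 1.46 and 1.20. Over all genes tested the share was 53.2%. Only 6 of the 1539 had a called line difference, and in 1199 (77.9%) the 95% interval excluded a difference of 2-fold in either direction. With median-ratio scaling, a setting chosen after seeing the data, the share was 63.5% of 1608 genes, and genes are not independent, so no test was made of it.

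Groups of genes were described by their counts and medians, beside a median line difference of 0.06 over all genes tested. Taken by time this median was 0.11 at 6 h and 0.01 at 12 h. Of all genes tested, 6.29% rose and 3.64% fell in C17.2b, and 3.89% rose and 2.79% fell in C17.2a. At an unadjusted p under 0.05 for the line difference in limma, 480 of 10187 genes were higher and 255 lower. The hypoxia response list, targets and regulators of hypoxia-inducible factors, had 22 of its 37 tested genes higher and 0 lower in C17.2b, and 20 higher and 0 lower in C17.2a. Its median response was 0.83 in C17.2b and 0.61 in C17.2a. The line difference had a median of 0.30, 0.31 at 6 h and 0.21 at 12 h. In limma 0 of its genes passed and 3, all higher, had an unadjusted p under 0.05. Plod2, a collagen lysyl hydroxylase, had 46.2 and 47.6 RPM in C17.2b with T3, against 19.1 and 13.0 RPM untreated, and 44.4 and 43.7 RPM in C17.2a with T3, against 34.3 and 22.8 RPM untreated, a line difference of 0.88 (0.34 to 1.41, adjusted p 0.374). Its T3 levels were close and its untreated levels apart.

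Glycolysis and glucose uptake had the highest median line difference among lists of more than 6 genes, 0.35, with 0.36 at 6 h and 0.23 at 12 h. In C17.2b 14 of 23 genes rose and 0 fell, and in C17.2a 9 rose and 1 fell. The enzyme Aldoa (aldolase A) had 848 and 1181 RPM in C17.2b with T3, against 482 and 622 RPM untreated. In C17.2a it had 752 and 957 RPM with T3, against 1125 and 763 RPM untreated, so its response there was -0.58 at 6 h and 0.33 at 12 h. The line differences were 1.0 for Aldoa (0.46 to 1.53, adjusted p 0.28), 0.88 for the phosphofructokinase Pfkm (adjusted p 0.376) and 0.76 for the enolase Eno1 (adjusted p 0.403). In limma 0 of the 23 passed, 6 higher and 1 lower had an unadjusted p under 0.05, and this list shares members with the hypoxia list.

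Genes of fatty acid synthesis rose in 9 of 19 cases and fell in 1 in C17.2b, and rose in 5 and fell in 0 in C17.2a, with a median line difference of 0.24. Besides Dgat2 the members with the smallest p were the lipin Lpin3 at 0.97 (0.22 to 1.73, adjusted p 0.575) and the desaturase Scd2 at 0.50 (0.11 to 0.89, adjusted p 0.583). The list of known T3-responsive genes had 15 of 28 higher and 1 lower in C17.2b, 9 higher and 2 lower in C17.2a, and a median line difference of 0.22, with median responses of 0.78 and 0.44. Its members with the smallest p were the uncoupling protein Ucp2 at 0.58 (adjusted p 0.522) and the clock output factor Dbp at 0.77 (adjusted p 0.605). The circadian clock list had 5 higher and 2 lower of 14 in C17.2b and 2 higher and 2 lower in C17.2a, with a median line difference of 0.30. Its repressor Nfil3 fell in C17.2b by 1.62 (adjusted p 6.64e-05), with 3.62 and 3.10 RPM with T3 against 13.9 and 10.9 RPM untreated. It also fell in C17.2a, by 0.81 (adjusted p 0.0176), with 7.26 and 3.89 RPM with T3 against 11.8 and 8.79 RPM untreated, and had a line difference of -0.80 (adjusted p 0.509).

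Early response and AP-1 genes had the lowest median line difference of the lists of at least 5 genes, -0.31, with -0.17 at 6 h and -0.30 at 12 h. In C17.2b 0 of 20 rose and 5 fell, and in C17.2a 2 rose and 2 fell. The transcription factor Myc had 6.17 and 9.65 RPM in C17.2b with T3, against 18.4 and 14.1 RPM untreated, and 10.4 and 9.91 RPM in C17.2a with T3, against 11.1 and 12.6 RPM untreated. It fell in C17.2b by 0.97 (adjusted p 0.00861), with -0.20 in C17.2a (adjusted p 0.7), and its line difference was -0.77 (-1.41 to -0.13, adjusted p 0.597). The survival gene Ier3 had a line difference of -1.22 (adjusted p 0.541) and the AP-1 subunit Fosl1 of -0.57 (adjusted p 0.651), Fosl1 having risen in C17.2a by 1.07 (adjusted p 0.00125) with 0.51 in C17.2b (adjusted p 0.0775). Cytoskeletal targets of serum response factor had 0 of 26 higher and 10 lower in C17.2b and 0 higher and 4 lower in C17.2a, with a median line difference of -0.11. The median responses of the list were close, at -0.29 in C17.2b and -0.32 in C17.2a. Its median line difference changed sign between the times, with 0.07 at 6 h and -0.22 at 12 h. The smooth muscle actin Acta2 fell in C17.2a by 0.52 (adjusted p 0.02), with a response of -0.04 in C17.2b (adjusted p 0.908), and its line difference was 0.48 (0.10 to 0.86, adjusted p 0.583). The calponin Cnn2 had -0.95 (-1.71 to -0.20, adjusted p 0.583), with responses of 0.10 and -0.52 in C17.2b at 6 and 12 h and 0.06 and 1.43 in C17.2a. The actin-binding Tagln2 fell in C17.2b by 0.87 (adjusted p 0.00697), where its responses were -0.92 and -0.82, against 0.04 and -0.67 in C17.2a, whose mean of -0.31 did not pass (adjusted p 0.4), and its line difference was -0.56 (adjusted p 0.69).

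The heat shock and unfolded protein list was the only one of the 33 lists with a called member, Hspa1b. Of its 22 genes 3 rose in C17.2b and 1 in C17.2a, and 0 fell in either line. Of all genes tested 6.29% rose in C17.2b and 3.89% in C17.2a, so counts this small do not set the list apart. The median line difference was 0.14, and 3 genes, all higher, had an unadjusted p under 0.05 for it. Sdf2l1, a protein of the endoplasmic reticulum, rose in C17.2b by 0.66 (adjusted p 0.0301) with -0.29 in C17.2a (adjusted p 0.436), and had a line difference of 0.95 (adjusted p 0.356), and the mitochondrial chaperonin Hspe1 rose by 0.73 there (adjusted p 0.0415), with 0.00 in C17.2a (adjusted p 0.996) and a line difference of 0.72 (adjusted p 0.64). The neural progenitor list had 1 of 18 higher and 5 lower in C17.2b and 1 higher and 3 lower in C17.2a, with a median line difference of -0.05. Within it Sox2 had 88.4 and 108 RPM in C17.2b with T3, against 306 and 282 RPM untreated, and 95 and 86.1 RPM in C17.2a with T3, against 186 and 188 RPM untreated, a line difference of -0.54 (-0.95 to -0.12, adjusted p 0.575).

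**Figure D5:**
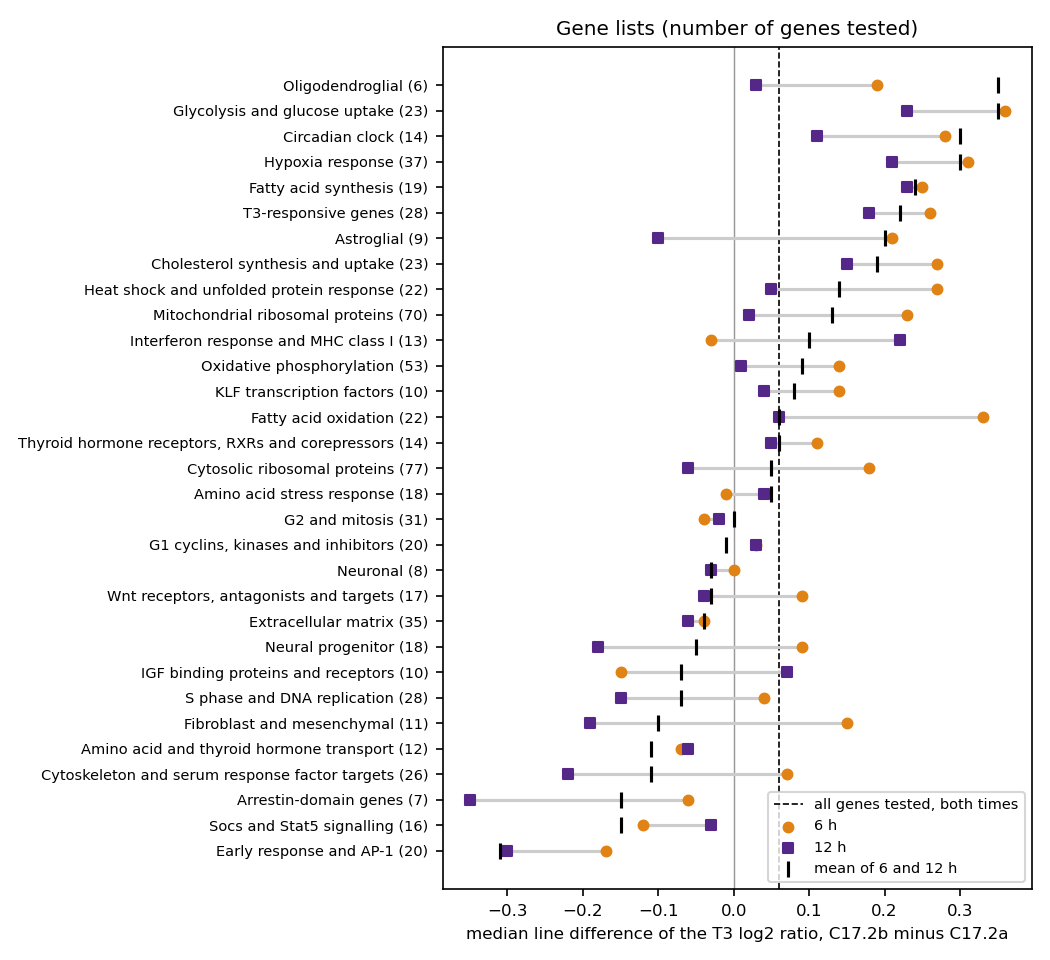
Median line difference of the T3 response (C17.2b minus C17.2a, log2 scale) for each gene list with at least 5 tested genes, the number tested in brackets; circles are 6 h, squares 12 h and vertical bars the mean of both times, and the dashed line is the median of 0.06 over all genes tested. Glycolysis, hypoxia and fatty acid synthesis lie to the right at both times and early response genes to the left at both times. By time, the median over all genes tested was 0.11 at 6 h and 0.01 at 12 h.

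The 24 h libraries gave the same measure outside the fit, with 1 pair a line and no test. The line difference at 24 h had the sign seen at 6 and 12 h in 6 of the 6 called genes and in 15 of the 23 named, while over all genes 58.2% were above 0 and 41.8% below it. The C17.2a 24 h pair stood apart: the Spearman correlation of its T3 with its untreated library over genes was 0.904, against 0.964 in the C17.2b 24 h pair and 0.974 to 0.979 in those of 6 and 12 h. Tgm2 had responses of 2.31 in C17.2b and 0.77 in C17.2a at 24 h, Hspa1b 3.10 and 2.14, and Rgs16 -3.01 and -0.53. Dmpk had 1.69 and -2.45, Enho 1.0 and -1.96, and Osr1 -0.84 and -4.89, with Osr1 at 0 RPM, or at an N/A read as 0, in the C17.2a library with T3. The part of that library in the last 3 values was not tested. With all 12 libraries in the fit 0 line differences were called, with 556 genes at an unadjusted p under 0.05, and the adjusted p of Tgm2 was 0.183.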

How the data were processed

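Digital gene expression libraries of polyA RNA were sequenced from both C17.2 lines with and without T3. The authors deposited 1 table of 12774 symbols and 12 columns of RPM, a unit read from the values, since the columns all have the total that RPM should have. The submitters' processing notes name mm9, and neither an aligner nor a rule for assigning tags is named in the sources used here. An N/A was read as 0, which touched 22 tested genes. Between 88.9% and 93.8% of the low values in the 8 libraries were whole multiples of the step that 1 tag is worth (tolerance 0.0055 RPM), so the values could not be turned back into counts for a count test. Symbols were matched to RefSeq: 11837 were current, 835 matched through a unique synonym and 102 did not match.

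From these values log2(RPM + 1) was fitted with limma 3.58.1 in R 4.3.3 (lmFit, eBayes with a trend), with the pair of line and time as a block and 2 residual degrees of freedom, for genes that reached 1 RPM in 3 or more of the 8 libraries, and p-values were adjusted by Benjamini-Hochberg over 10187 genes at a threshold of 0.05. The p-values rest on the spread between pairs, drawn in each gene towards a trend shared over genes. That spread contains real differences between 6 and 12 h and may be technical. Named genes were the 12 highest and 12 lowest line differences among genes past 0.05 with a mean of at least 3 RPM and no overlap between lines, filled to 12 by smallest unadjusted p, of which 1 is not reported here, then the 6 highest and 6 lowest averaged responses with 1 sign in all 4 pairs, Thra, Thrb, Hr, Klf9 and Epas1, and up to 3 members with the smallest p of each list described. The members and the 33 lists were chosen with earlier results of these data known. Another symbol had the same 12 values for 80 tested genes, none of them named. The script was tested on simulated data. Alternatives were median-ratio scaling, 2 other filters, pseudocounts of 0.5 and 5, voom on implied tags, a time term, all 12 libraries, leaving out each pair, and leaving out symbols with an N/A. Figures were drawn with matplotlib 3.10.9.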

Additional observations from a re-analysis of the deposited data

Results flagged for a closer look

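For 6 genes the response to T3 differed between the lines by a direct test of that difference in limma, each over 2 pairs a line. The line difference, C17.2b minus C17.2a on the log2 scale, was 2.17 for Tgm2, 1.95 for Osr1, 1.59 for Dmpk, 1.52 for Hspa1b, 1.5 for Enho and -1.5 for Rgs16. In each, both C17.2b pairs lay on one side of both C17.2a pairs, which the choice of named genes required and which is no added support. Over all genes tested both C17.2b responses lay above both C17.2a responses in 22.9% and below them in 13.3%. Over all genes tested 0.0491% were called higher and 0.00982% lower.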

How the results depend on the processing

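Against 6 genes called for the line difference, the count was 3 under median-ratio scaling, 1 without a filter on low values, 2 with a filter at 5 RPM, 114 with a time term (73 higher, 41 lower, 1 residual degree of freedom) and 0 with all 12 libraries, and it ran from 14 to 183 when each pair was left out, the lone pair of a line then being assumed to vary like the others. Pseudocounts of 0.5 and 5, voom and the exclusion of symbols with an N/A gave 6, 8, 7 and 6. For C17.2b, against 1012, it was 587 without a filter and 322 with all 12 libraries, and 507 to 1630 when each pair was left out. For C17.2a, against 680, it was 292 without a filter, 1188 with the time term and 141 with all 12 libraries. The averaged response, against 1539, gave 668 with all 12 libraries. The cause of these shifts was not tested. Among the 23 genes named for the line difference, over 299 values, 2 changed sign, Lix1l at 0.15 and Fam38a at 0.09, both with all 12 libraries. Thra became 0.65 with all 12 libraries, and with each pair left out in turn it ran from -0.32 to 0.11, Thrb from -0.53 to 0.33 and Hr from -0.17 to 0.22. Hr became -0.03 under median-ratio scaling, -0.11 with a pseudocount of 0.5, 0.43 with a pseudocount of 5 and -0.23 with voom. Median-ratio scaling moved the median line difference over all genes to 0.003, against 0.059 as deposited. No paired analysis by replicate number was possible because each group has 1 library and the labels give no replicate numbers. Depth limits the genes near 1 RPM, Thra and Thrb among them.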

Other observations

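Several other groups of genes were measured in the same fit. Of all genes tested, 6.29% rose and 3.64% fell in C17.2b, and 3.89% rose and 2.79% fell in C17.2a. At an unadjusted p under 0.05 for the line difference in limma, 480 of 10187 were higher and 255 lower. Counts of a few genes in a list below are not set apart from these shares. Mitochondrial ribosomal protein genes, whose products translate the mitochondrial genome, had both C17.2b responses above both C17.2a responses in 23 of 70 genes (32.9%, against 22.9% of all genes) and below them in 6 (8.57%, against 13.3%), with a median line difference of 0.13. In limma 0 of them were called, and 4, all higher, had an unadjusted p under 0.05. The share above was not particular to this list. It was 42.9% among T3-responsive genes, 39.1% in cholesterol synthesis and uptake and 37.8% in the hypoxia response, but 5% among early response and AP-1 genes. Mrps33 had 36.2 and 38.4 RPM in C17.2b with T3, against 22.4 and 35.3 RPM untreated, and 22.5 and 15.9 RPM in C17.2a with T3, against 37.5 and 26.1 RPM untreated, a line difference of 1.09 (adjusted p 0.136 in limma). The median line difference of the mitochondrial ribosomal list was 0.23 at 6 h and 0.02 at 12 h, against 0.11 and 0.01 over all genes tested.

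Genes of cholesterol synthesis and uptake had 1 of 23 genes called, lower in C17.2a, with median responses of 0.06 and -0.18. Genes of fatty acid oxidation had 3 of 22 higher in C17.2b and 2 higher and 1 lower in C17.2a. Hadh, a dehydrogenase of that pathway, rose in C17.2b by 1.38 (adjusted p 6.14e-05) and in C17.2a by 0.76 (adjusted p 0.00939), with a line difference of 0.62 (adjusted p 0.583). Of 31 genes of G2 and mitosis, 0 had a called line difference in limma and 1, higher, had an unadjusted p under 0.05. The peripheral myelin gene Pmp2 fell in C17.2b by 0.74 (adjusted p 0.0241) and in C17.2a by 1.73 (adjusted p 7.69e-05), with responses of -0.67 and -0.81 in C17.2b against -1.31 and -2.14 in C17.2a, a line difference of 0.99 (adjusted p 0.363).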
